A study of Mus musculus with 8 samples.

Results

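The genes described here are replication-dependent histone genes, chosen as the rows whose gene symbol begins with Hist1h, Hist2h, Hist3h or Hist4h. Of the 55401 genes in the files, 9 met this rule, all of them on chromosome 13: the H2A genes Hist1h2an, Hist1h2ao, Hist1h2ap and Hist1h2al, the H2B genes Hist1h2bp, Hist1h2bq and Hist1h2br, and the H4 genes Hist1h4m and Hist1h4n. The rule finds no H1 and no H3 gene, because the files give most histone genes their newer symbols. By gene identifier, 70 genes of the files have a Hist symbol in the GENCODE M21 annotation, and the other 61 (for example H1f5, H2ac12 and H2bc7) serve here as the wider family against which the 9 were read. Every library came from AtT-20, a mouse pituitary cell line labelled as corticotrope, with the genotype ER-Pax7, the pioneer factor Pax7 joined to an estrogen receptor part so that tamoxifen activates it. The groups were 0, 24, 48 and 72 h of tamoxifen, with 2 libraries each and 8 in all. Which promoter drives ER-Pax7, and whether the cells are 1 clone, was not given in the sources used here. No library lacked ER-Pax7, and vehicle-treated libraries of matched times were not used here, so ER-Pax7 activity, tamoxifen and hours in culture cannot be told apart. The labels do not say whether the 2 libraries of a time were separate cultures, and a p-value here reflects the spread from library to library, which may be technical.

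Replication-dependent histone genes supply the core histones H2A, H2B, H3 and H4 and the linker histone H1 that package newly copied DNA. They are short, mostly without introns, grouped in clusters and transcribed mainly in S phase, often from shared promoters that lie between an H2A gene and an H2B gene. Their mRNAs end in a stem-loop instead of a poly(A) tail; the stem-loop binding protein Slbp and the U7 ribonucleoprotein make that end, and the mRNAs are lost quickly when DNA replication stops. Libraries made by selecting poly(A) therefore miss most of these RNAs, whereas the RNA here was depleted of ribosomal RNA and kept them.

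The 3′ end signal is printed first because it is what makes this RNA class. In the GENCODE M21 transcripts (GRCm38), the most frequent window of 16 letters after the stop codon whose first and last 6 letters pair is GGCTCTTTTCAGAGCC, in 28 family transcripts. It was then searched with at most 3 mismatches within 150 bases after the stop codon. It was found in 5 of the 8 coding genes among the 9 and in 44 of 67 coding genes of the whole family. Many annotated transcripts end at or near the stop codon. Of the 48 family genes with a transcript of at least 60 bases after it, 42 had the stem-loop. The capitals mark the stem-loop, and the letters around it are its flanks.
Hist1h2ao, chr13:21810898-21810913, plus strand: aaaGGCTCTTTTCAGAGCCatcca
Hist1h2ap, chr13:21833029-21833044, minus strand: aaaGGCTCTTTTCAGAGCCatc
Hist1h2bp, chr13:21787923-21787938, plus strand: aaaGGCTCTTTTCAGAGCCaccca
Hist1h4m, chr13:21812129-21812144, plus strand: aaaGGCCCTTTTCAGGGCCatc
Hist1h4n, chr13:21831798-21831813, minus strand: aaaGGCCCTTTTCAGGGCCatcca
The H4 genes differ from the searched letters at 2 positions. For Hist1h2an the annotated transcript ends at its stop codon, so there was nothing to search. Hist1h2bq and Hist1h2br have a transcript of that kind too, and beside it longer spliced transcripts with 823 bases or more after the stop codon, in whose window these letters did not occur. Hist1h2al is annotated as a processed pseudogene and has no coding transcript.

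Of the 9 genes, 8 lie close together, from the start of Hist1h2an at position 21786826 to the end of Hist1h2br at 21837530. Hist1h2al lies apart, at 51202727 to 51203065 on the minus strand. The 3 H2A and the 3 H2B genes of the stretch form divergent pairs with starts close together: 242 bases lie between Hist1h2an and Hist1h2bp, 267 between Hist1h2bq and Hist1h2ao, and 235 between Hist1h2ap and Hist1h2br. The stretch holds identical and near-identical copies. The coding sequences of Hist1h2ao and Hist1h2ap are identical over 390 bases, those of Hist1h2bq and Hist1h2br over 378 bases, and those of Hist1h4m and Hist1h4n over 309 bases. Hist1h2an differs from the other H2A genes of the stretch at 5 of 390 bases, and Hist1h2bp from the other H2B genes at 6 of 378 bases.

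Promoters from RefSeq (GRCm38.p6), covering 250 bases before to 50 after the start, were available for 8 of the 9 genes. The promoters of Hist1h2bq and Hist1h2br are identical over all 300 bases, and those of Hist1h4m and Hist1h4n differ at 1 of 299 aligned bases. Printed are the promoter shared by Hist1h2bq and Hist1h2br, the promoter of the third H2B gene, and that of Hist1h4n. Hist1h2bq and Hist1h2br had different mean signals, given below, although these windows are identical. Capitals mark TATAAA and CCAAT, on either strand.
Hist1h2br, chr13:21833493-21833792, plus strand: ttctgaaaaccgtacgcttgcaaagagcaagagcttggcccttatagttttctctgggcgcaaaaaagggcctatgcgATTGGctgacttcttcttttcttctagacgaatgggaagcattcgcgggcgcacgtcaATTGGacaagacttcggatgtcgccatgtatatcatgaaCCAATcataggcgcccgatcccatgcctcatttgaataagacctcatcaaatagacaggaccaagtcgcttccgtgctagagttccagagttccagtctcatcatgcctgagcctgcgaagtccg
Hist1h2bp, chr13:21787238-21787537, plus strand: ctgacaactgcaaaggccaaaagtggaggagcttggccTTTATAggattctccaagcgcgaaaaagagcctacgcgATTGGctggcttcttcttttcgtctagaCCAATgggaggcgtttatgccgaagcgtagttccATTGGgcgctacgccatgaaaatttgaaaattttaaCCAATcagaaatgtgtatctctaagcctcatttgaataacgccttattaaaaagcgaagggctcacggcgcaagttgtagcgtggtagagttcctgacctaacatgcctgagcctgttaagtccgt
Hist1h4n, chr13:21832148-21832447, minus strand: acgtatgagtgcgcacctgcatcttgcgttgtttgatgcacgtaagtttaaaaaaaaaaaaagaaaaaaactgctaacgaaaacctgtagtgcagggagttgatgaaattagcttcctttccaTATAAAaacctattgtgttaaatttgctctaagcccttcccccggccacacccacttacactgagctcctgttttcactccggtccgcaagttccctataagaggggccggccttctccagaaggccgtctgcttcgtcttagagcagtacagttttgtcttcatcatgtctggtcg
CCAAT occurred in 6 of the 8 promoters, in all 6 H2A and H2B genes and in neither H4 gene, against 37.4% of 32851 mouse promoters of the same length. TATAAA occurred in 4 of the 8, both H4 genes among them, against 13.6% of all promoters. ATTTGCAT, the octamer that binds Oct1 in many H2B promoters, occurred in 0 of the 8, in 13 of 54 promoters of the other family genes and in 1.74% of all promoters. These are matches of letters in this window only. The 8 windows are not independent sequences. Those of each divergent pair overlap, so a match on either strand can count for both genes. Those of Hist1h2bq and Hist1h2br are identical, and the H4 windows are nearly so. The counts out of 8 are therefore no measure of enrichment over all promoters.

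Each gene had 1 normalized signal value per library. Its scaling rule was not given in the sources used here. Genes of very different length in the same stretch had equal values, so the signal was read as mean coverage per base, and levels of different genes are compared on that footing. Summed signal was 164236 to 178548 per library, and 9516 to 9608 genes reached a signal of 1. Read depth is not given, so no counting intervals can be given. The line's identity was checked by markers. The corticotrope list of 7 genes summed to 540 to 734, most of it Pomc, at 499 to 679 in every library. Of this list 6 genes were tested. Limma called 0 at 24 and 48 h and 1, lower, at 72 h (log2 change -0.40, limma adjusted p = 0.044), where 2.01% of all tested genes were called. The lists for fibroblast, immune, endothelial, germ line and other pituitary cells each summed to at most 0.537. Of the melanotrope list, which summed to 13.3 to 15.8, Pax7 made up most (12.6 to 14.4, at 0 h also), Pcsk2 was at 0.294 to 0.845 and Drd2 was listed at 0. Every library carries ER-Pax7, so Pax7 signal from the construct and from the cells' own gene cannot be told apart here.

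The 9 histone genes were abundant in every library, and none passed the test at any time of tamoxifen. Their summed signal ran from 905.67 in the second 72 h library to 1169.5 in the first, or 0.520% to 0.666% of a library's total. By time the sum was 961 ± 77.3 (SD, n = 2) before tamoxifen, 1055 ± 111 after 24 h, 1072 ± 47.3 after 48 h and 1038 ± 187 after 72 h. The ratios to 0 h were 1.098, 1.116 and 1.080. As deposited, both 48 h libraries lay above both 0 h libraries, the 24 h libraries overlapped 0 h, and the 72 h libraries lay on either side of it. Non-histone genes next to Hist1h2br shared a signal that differed between libraries, described below. With that value subtracted from Hist1h2br, the ratios were 1.06, 1.08 and 1.04, and the 48 h libraries no longer both lay above both 0 h libraries. This subtraction was chosen after seeing the data. The whole family of 70 genes summed to 6767 ± 5.46 before tamoxifen, 7389 ± 1259 after 24 h, 7027 ± 181 after 48 h and 6553 ± 683 after 72 h. This is 3.69% to 4.64% of a library's summed signal. The family sum includes signal shared with non-histone neighbours, described below, and none of it was subtracted. A signal read as coverage per base does not weigh genes by length, so these percentages are not shares of reads. In RNA from bulk cells, a different share of cells in S phase and a different amount of histone mRNA per cell cannot be told apart.

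**Figure D1:**
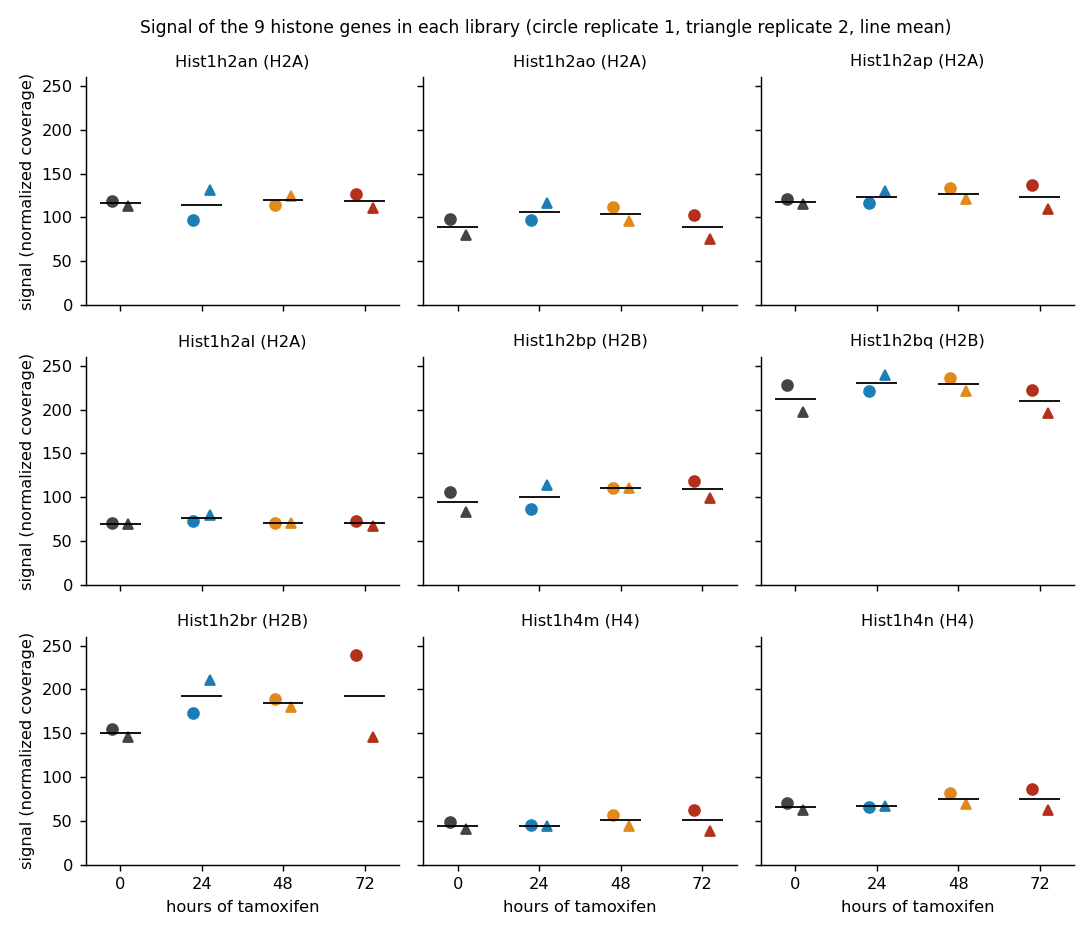
Signal (normalized coverage, vertical axes from 0) of each of the 9 histone genes against hours of tamoxifen; circles are replicate 1, triangles replicate 2 and lines the mean of 2 libraries. Hist1h2bq is highest and Hist1h4m lowest, and Hist1h2br has the widest gap between libraries of 1 time, 239 against 145 at 72 h.

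In order of mean level over the 8 libraries, Hist1h2bq came first (220 ± 16.05, SD over 8 libraries), followed by Hist1h2br (180 ± 33.0), Hist1h2ap (123 ± 9.61), Hist1h2an (117 ± 10.9), Hist1h2bp (104 ± 12.98), Hist1h2ao (97.2 ± 14.0), Hist1h2al (71.9 ± 3.78), Hist1h4n (70.8 ± 9.03) and Hist1h4m (47.6 ± 8.21). Between neighbours in this order, only Hist1h2br and Hist1h2ap had ranges that did not overlap. The identical coding pairs had unequal means. Hist1h2ap exceeded Hist1h2ao by 13.51 to 35.65 and Hist1h4n exceeded Hist1h4m by 20.64 to 25.21 in every library. Hist1h2bq less Hist1h2br ran from -16.81, in the first 72 h library, to 73.15, so that order did not hold in every library. Much of each gene is shared sequence: of all 50-base windows of Hist1h2bq, 97.3% occur also in another histone gene. The share was 85.6% to 93.5% for Hist1h2an, Hist1h2ao, Hist1h2ap, Hist1h2br and both H4 genes, 67.6% for Hist1h2al and 44.1% for Hist1h2bp. How reads that match several copies were assigned was not given in the sources used here, and the split of signal between copies is uncertain.

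Histone H2A forms dimers with H2B in the nucleosome, and Hist1h2an, Hist1h2ao and Hist1h2ap each encode a canonical H2A. Hist1h2an was at 118.8 and 113.3 at 0 h, 97.2 and 131.9 at 24 h, 114.4 and 124.7 at 48 h, and 127.0 and 111.2 at 72 h. Hist1h2ap was at 120.7 and 115.3 at 0 h, 117.0 and 129.6 at 24 h, 133.0 and 121.6 at 48 h, and 137.4 and 109.1 at 72 h. For Hist1h2an the 24 h libraries enclosed both 0 h values, and for Hist1h2ap only the 48 h libraries lay above both. The fitted log2 changes of Hist1h2ap were 0.06, 0.11 and 0.05 (SE 0.12), with limma adjusted p of 0.848 to 0.892. Hist1h2ao was at 98.4 and 79.7 at 0 h, 97.3 and 116.1 at 24 h, 112.4 and 95.5 at 48 h, and 102.2 and 76.0 at 72 h, so that every time overlapped 0 h. Its log2 changes were 0.26, 0.22 and -0.01 (SE 0.17; limma adjusted p 0.553, 0.754 and 0.992).

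Hist1h2al, the pseudogene copy away from the cluster, varied least. It was at 70.1 and 69.4 at 0 h, 73.3 and 80.1 at 24 h, 71.2 and 70.9 at 48 h, and 72.9 and 67.6 at 72 h. Both 24 h and both 48 h libraries were above both 0 h libraries, by little; the log2 change at 24 h was 0.13 ± 0.07 (SE; limma adjusted p = 0.465). All 4 H2A genes overlap an antisense miRNA gene model (Gm44346, Gm19658, Gm44466 and Gm44341) over 28.6% to 35.9% of their exonic bases. Whether the counting used strand was not given in the sources used here, and signal of the H2A genes and of these models cannot be told apart; the H2B and H4 genes overlap no other exon.

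Among the H2B genes, Hist1h2bq had the highest level of all 9 genes: 227.7 and 197.3 at 0 h, 220.6 and 239.7 at 24 h, 236.5 and 221.6 at 48 h, and 222.4 and 196.3 at 72 h. Hist1h2bp, its relative with the most sequence of its own, was at 106.5 and 82.8 at 0 h, 86.7 and 114.0 at 24 h, 110.2 and 110.4 at 48 h, and 118.9 and 99.1 at 72 h. Groups overlapped for both genes, except that Hist1h2bp at 48 h lay above both 0 h libraries (log2 change 0.23, SE 0.17, limma adjusted p = 0.721). Hist1h2br was at 154.6 and 145.9 at 0 h, 173.6 and 211.2 at 24 h, 188.7 and 180.4 at 48 h, and 239.2 and 145.3 at 72 h. All 4 libraries of 24 and 48 h and 1 of 72 h were above both 0 h libraries, while the second 72 h library was the lowest of the 8. Hist1h2br had the largest fitted changes of the 9 at every time, with log2 values of 0.35, 0.30 and 0.31 (SE 0.21; limma adjusted p 0.521, 0.721 and 0.548).

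Histone H4 is the most conserved core histone, and Hist1h4m and Hist1h4n encode it with the same coding letters. Hist1h4m was at 48.8 and 40.3 at 0 h, 45.0 and 44.1 at 24 h, 57.0 and 44.7 at 48 h, and 62.5 and 38.6 at 72 h. Hist1h4n was at 70.2 and 62.3 at 0 h, 65.7 and 67.6 at 24 h, 82.2 and 68.9 at 48 h, and 87.0 and 62.6 at 72 h. The H4 genes moved together: Hist1h4n exceeded Hist1h4m by 20.6 to 25.2 in all 8 libraries, although the signal of each ranged over 23.9 (Hist1h4m) and 24.6 (Hist1h4n). Their log2 changes were 0.01 and 0.01 at 24 h, 0.18 and 0.18 at 48 h, and 0.14 and 0.16 at 72 h, with SE of 0.22 for Hist1h4m and 0.16 for Hist1h4n and limma adjusted p of 0.706 or more.

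Libraries of the same time differed in a direction that most of these genes shared. At 0 h and at 72 h replicate 1 was higher than replicate 2 in 9 of 9 genes, at 48 h in 7 of 9 and at 24 h in 1 of 9. Replicate 1 of 72 h gave the highest value of 5 genes and replicate 2 of 24 h that of the other 4, while replicate 2 of 72 h gave the lowest value of 6. Whether a replicate number means the same across times is not known, and these counts only show that the genes deviate in the same direction within a library. The share over all tested genes is not given here. Trimmed mean scaling factors over all tested genes were 1 and 0.973 at 0 h, 1.018 and 0.985 at 24 h, 0.991 and 0.991 at 48 h, and 1.003 and 0.989 at 72 h. The 9 genes also share much sequence and are not separate observations.

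Across the 9606 genes whose mean signal was 1 or more, limma called 0 of the 9 histone genes at 24 h, where 0.229% of all tested genes were called, 0 at 48 h, where 0.552% were called, and 0 at 72 h, where 2.01% were called (adjusted p under 0.05). The number of the 9 with an unadjusted p under 0.05 was also 0 at each time, beside 13.2%, 10.5% and 15.7% of all tested genes. Adjusted p ran from 0.465 to 0.991 at 24 h, from 0.721 to 0.961 at 48 h and from 0.548 to 0.992 at 72 h. The median log2 change of the 9 was 0.08 at 24 h, 0.18 at 48 h and 0.05 at 72 h, beside 0.01, 0.00 and 0.01 over all tested genes. Both later libraries lay above both 0 h libraries in 2 of the 9 genes at 24 h, in 4 at 48 h and in 0 at 72 h, where the shares over all tested genes were 24.4%, 24.3% and 27.4%. The number that lay below was 0 at each time, against 17.8%, 22% and 22.4% of all tested genes. With replicate 1 of 72 h left out, the median change at 72 h was -0.08 and the ratio of summed signal 0.942.

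Along the chromosome, Hist1h2br stands at the edge of a stretch whose signal differed between libraries. Between the end of Hist1h2br and H2ac12, an H2A gene of the wider family, lie 12 genes that are not histone genes. They span 157 kb (chr13:21875233-22032196), begin 37.7 kb past Hist1h2br and end 2.97 kb before H2ac12, and include Zfp184, Pom121l2, Prss16, microRNA models and pseudogenes. In each library 11 of the 12 had nearly the same signal, within 5% of the lowest of them. That shared value was 1.997 and 1.55 at 0 h, 16.7 and 54.4 at 24 h, 32.5 and 33.6 at 48 h, and 85.7 and 2.78 at 72 h. Past H2bc11, the next gene, Gm48356, was at most 0.0453, and before the cluster the olfactory receptor gene Olfr1361 was at most 0.0254. The shared signal was thus bounded by histone genes on both sides.

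**Figure D2:**
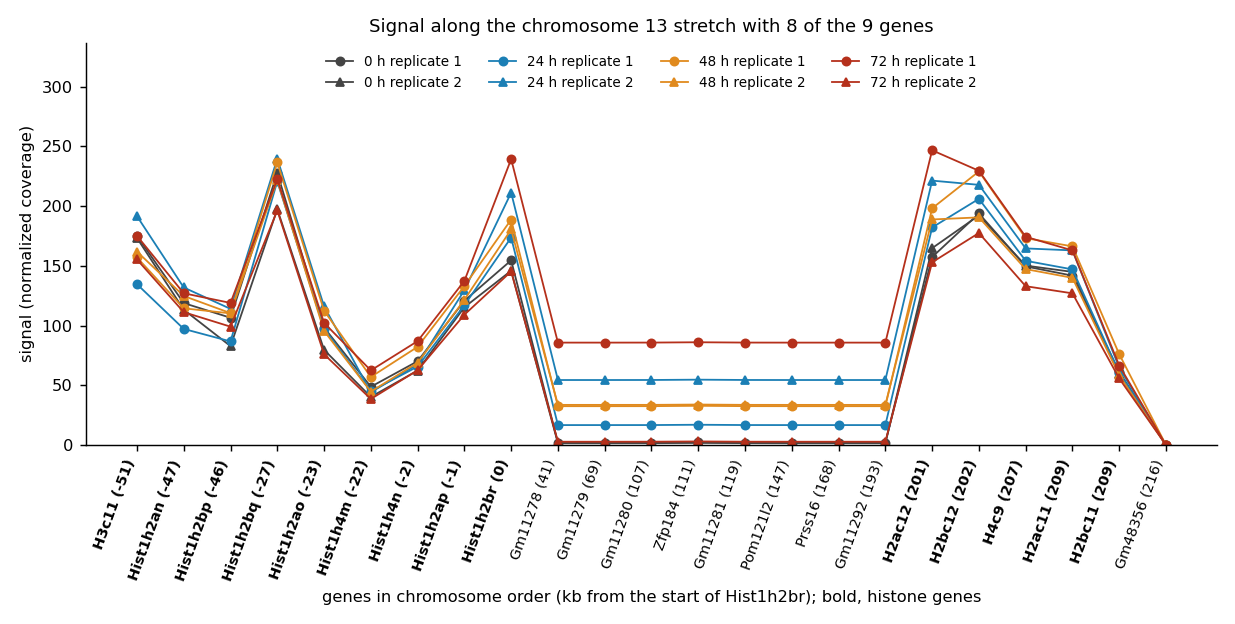
Signal (normalized coverage) of genes in chromosome order along the stretch with 8 of the 9 histone genes, for each of 8 libraries; numbers in brackets are kb from the start of Hist1h2br, histone genes are in bold, and 8 of the 12 genes between Hist1h2br and H2ac12 are drawn. The level between them is flat within each library and runs from 1.55 to 85.7 across libraries.

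The 5 libraries with a shared value of 16.7 or more were the 5 highest in Hist1h2br. Subtracting it in each library left Hist1h2br at 152.6 and 144.3 at 0 h, 156.9 and 156.7 at 24 h, 156.2 and 146.8 at 48 h, and 153.5 and 142.5 at 72 h. The SD over the 8 libraries was 33.0 before and 5.83 after. The first 72 h library, the highest of all as deposited, lay inside the range of the others after subtraction. The fitted log2 changes of Hist1h2br became 0.08, 0.03 and -0.00. On the far side of the stretch, H2ac12 went from a range of 153 to 247 (SD 32.5) to one of 150 to 167 (SD 6.09). This subtraction was chosen after seeing the data, and where the shared signal comes from was not tested.

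In the other 8 genes the same subtraction widened the spread. It raised their SD over the libraries from at most 16.05 to at least 22.0, and left negative values for Hist1h4m (down to -23.3) and Hist1h2al (down to -12.9). In the first 72 h library the whole signal of Hist1h4m was 62.5, less than the 85.7 shared by the genes past Hist1h2br. On the near side of the stretch, the RNA gene Gm11274 was at 60.2 to 98.6, and the linker histone gene H1f5, next to it, exceeded it by 0.00285 to 0.111. Subtracting Gm11274 lowered the SD of Hist1h2an from 10.9 to 7.80 and raised that of Hist1h2bp from 12.98 to 14.5. The level of H1f5 itself could therefore not be separated from that of its neighbour.

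**Figure D3:**
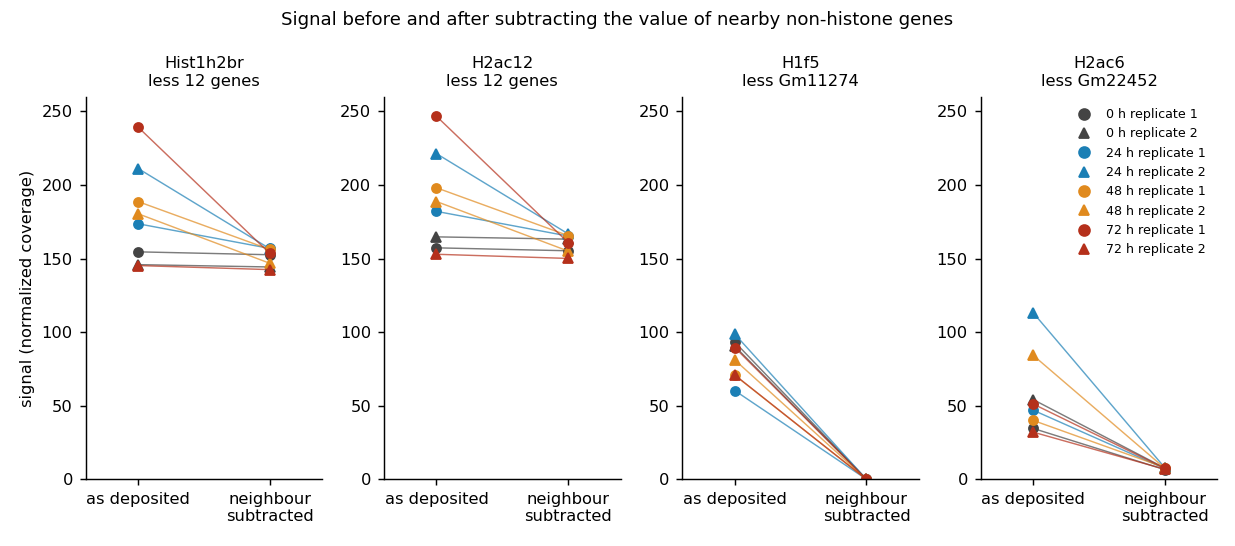
Signal (normalized coverage, axes from 0) of Hist1h2br, H2ac12, H1f5 and H2ac6 as deposited and after subtracting the value of nearby non-histone genes in the same library; each line is 1 of 8 libraries. The Hist1h2br range of 145 to 239 narrows to 142.5 to 156.9, and H1f5 is left at most 0.111.

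In the wider family, limma also called 0 of 60 tested genes at each time. An unadjusted p under 0.05 was reached by 3 of the 60 at 24 h, 2 at 48 h and 15 at 72 h, where the shares over all tested genes were 13.2%, 10.5% and 15.7%. The median log2 change of these 60 genes was 0.10, 0.02 and -0.08, and 42, 35 and 17 of them had values above 0. Over all 9606 tested genes, 5350, 5022 and 5121 had values above 0. At 72 h, 19 of the 60 were below both 0 h libraries, against 0 of the 9 genes of the rule and 22.4% of all tested genes. The difference between the 9 and the 60 was not tested. The lowest adjusted p values at 72 h belonged to H2bc7 and H2bc8 (both 0.081) and to H2ac8 (0.0935). These genes lie close together (chr13:23570517-23574196), near others that were lower at 72 h, such as H1f3 (log2 change -0.59) and H3c7 (-0.50). Whether signal is shared along this stretch was not tested, so they cannot be taken as separate results. H2bc7 was at 117.4 and 104.8 at 0 h and at 71.7 and 82.0 at 72 h, with a log2 change of -0.53 (SE 0.12). Leaving out either 24 h library from the shared fit brought 3 of the 69 family genes past the threshold at 72 h, in fits that called 3.26% and 3.33% of all tested genes. Leaving out the second 72 h library brought 1, where 0.468% of all tested genes were called.

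Signs in the wider family are given by chromosome, and the difference between chromosomes was not tested. Of all 9606 tested genes, 5350, 5022 and 5121 were above 0 at 24, 48 and 72 h. Genes of a chromosome can be near-copies and are not separate observations. On chromosome 3, 89.2% of the 50-base windows of H2ac18 and 100% of those of H2ac19 occur in other family genes. On chromosome 3, 10, 8 and 9 of 10 tested genes had log2 values above 0 at 24, 48 and 72 h, with a median of 0.13 at 72 h. On chromosome 13, 29, 24 and 8 of 46 tested genes outside the rule did so at 24, 48 and 72 h, with medians of 0.09, 0.01 and -0.14, and 0 genes on either chromosome were called by limma. Of the 6 H1 genes, 5 had values above 0 at 24 h (median 0.19), 3 at 48 h (median 0.04) and 0 at 72 h (median -0.20). These are values as deposited, and H1f2, H1f4, H1f5 and H1f6 lie near non-histone genes whose signal also differed between libraries. Less Gm11338, such a neighbour, H1f2 averaged 62.28, 61.17, 63.72 and 61.05 at 0, 24, 48 and 72 h. As deposited it averaged 117.4, 147.1, 130.3 and 102.6. Less Gm22452, H1f4 averaged 38.74, 44.46, 39.05 and 39.74, against 76.0, 116.9, 93.4 and 74.2. These subtractions were chosen after seeing the data. No neighbour value was subtracted from H1f3 or H1f1. Their log2 changes at 72 h were -0.59 (SE 0.19, limma adjusted p = 0.189) and -0.24 (SE 0.07, limma adjusted p = 0.165).

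**Figure D4:**
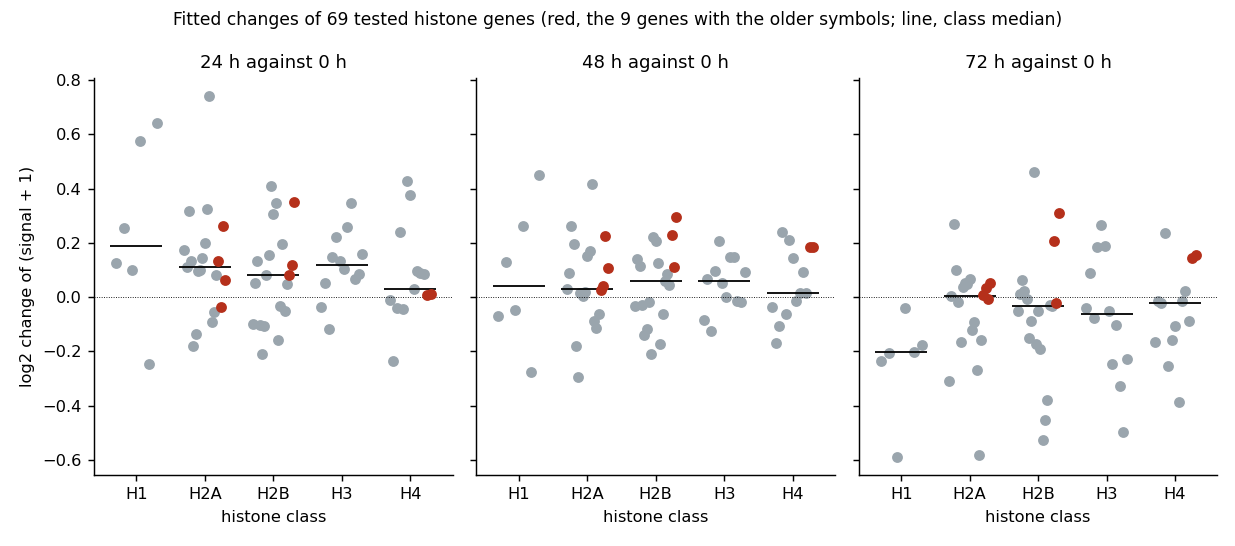
Fitted log2 change of (signal + 1) against 0 h for 69 tested histone genes by class and time, with the 9 genes of the rule in red, the other 60 in grey and black lines at class medians. The red points lie between -0.03 and 0.35, and at 72 h most grey points (43 of 60) lie below 0, as do 4485 of all 9606 tested genes.

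Signal shared by neighbours was also seen around histone genes further along chromosome 13. The small RNA gene Gm22452, between H1f4 and H2ac6, was at 28.0 and 46.5 at 0 h, 39.7 and 105 at 24 h, 32.1 and 76.7 at 48 h, and 43.7 and 25.2 at 72 h. The H2A gene H2ac6, at 32.1 to 113 as deposited, was left at 6.63 to 8.01 once Gm22452 was subtracted. H1f6 encodes the testis-specific linker histone and went from 25.2 to 116 as deposited to 0.0181 to 14.1. The other germ-line histone genes were low without any subtraction: H2ac1 was at most 0.0508 and H2bc1 was at 3.52 to 4.55. Further along, Hfe and Gm11338 shared a value of 28.8 to 135, and Trim38, just past H1f1, was at most 0.00632.

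**Figure D5:**
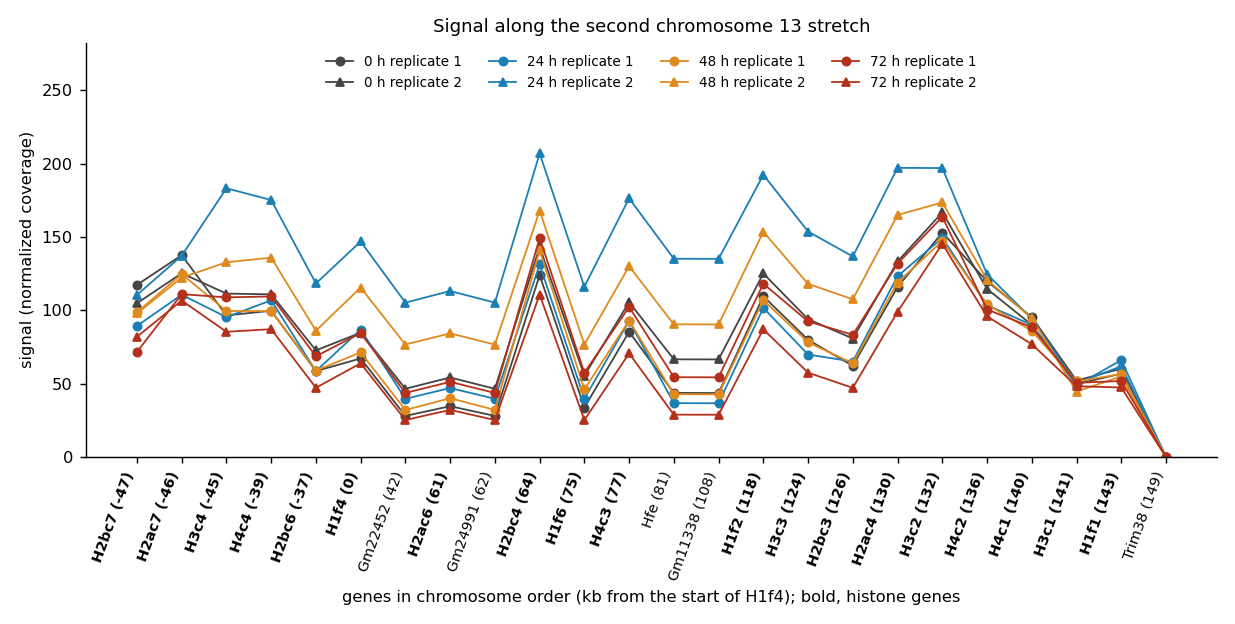
Signal (normalized coverage) of genes in chromosome order along a second part of the chromosome 13 cluster, for each of 8 libraries; numbers in brackets are kb from the start of H1f4 and histone genes are in bold. The second 24 h library is highest from H3c4 to H2ac4, in the non-histone genes Gm22452 (105) and Gm11338 (135) as well, and Trim38 is near 0.

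Genes that transcribe and process histone mRNA, or work beside it in S phase, gave no call either. Of the list for histone mRNA processing and turnover, 24 of 30 genes were tested and limma called 0 at each time. An unadjusted p under 0.05 was reached by 1, 0 and 2, beside 13.2%, 10.5% and 15.7% of all tested genes. Slbp, which binds the stem-loop, was at 8.38 and 7.96 at 0 h, 8.31 and 8.45 at 24 h, 7.63 and 7.72 at 48 h, and 7.16 and 7.60 at 72 h. Its 48 h and 72 h libraries were below both 0 h libraries, with a log2 change at 72 h of -0.13 (SE 0.05; limma adjusted p = 0.294). Npat, the coactivator of histone gene transcription, was at 2.96 to 3.28 and Casp8ap2, its partner at histone loci, at 1.75 to 1.90. For S phase, limma called 0 of 32 genes at each time (4, 1 and 6 with an unadjusted p under 0.05, a level reached by 13.2%, 10.5% and 15.7% of all tested genes), and their summed signal was 209 to 226 per library. For mitosis it called 0 of 14 (0, 0 and 1), with a sum of 81.1 to 90.6. The S phase sum was highest in the first 24 h library and the histone sum of the 9 genes in the first 72 h library.

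Replacement histones are made outside S phase too, mostly from mRNAs with poly(A) tails. Of that list 12 of 14 genes were tested and limma called 0 at each time, with 2, 0 and 5 at an unadjusted p under 0.05 (13.2%, 10.5% and 15.7% of all tested genes). H3f3a, which encodes the H3.3 variant, was at 25.7 and 23.9 at 0 h, 25.8 and 24.7 at 24 h, 22.8 and 23.6 at 48 h, and 21.2 and 20.0 at 72 h. Its log2 change at 72 h was -0.25 (SE 0.06; limma adjusted p = 0.105), with both 72 h libraries below every other library. H2afx, the variant phosphorylated at DNA breaks, was at 19.3 and 19.5 at 0 h and 26.1 and 22.6 at 24 h (log2 0.31, SE 0.08, limma adjusted p = 0.192). Histone chaperones gave 0 calls of 21 tested by limma, with 1, 0 and 0 at an unadjusted p under 0.05, beside the same shares of all tested genes.

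Other RNAs without poly(A) were read beside the histone genes. Limma called 0 of 13 tested at each time, 0 with an unadjusted p under 0.05, beside 13.2%, 10.5% and 15.7% of all tested genes. Rn7sk, the scaffold RNA that holds the elongation factor P-TEFb, was at 5019 and 5202 at 0 h, 5414 and 5657 at 24 h, 5320 and 5352 at 48 h, and 5057 and 5110 at 72 h. All libraries of 24 and 48 h were above both of 0 h for Rn7sk, with log2 changes of 0.12 and 0.06 (SE 0.08; limma adjusted p 0.568 and 0.870). At 72 h Rn7sk was near 0 h (log2 change -0.01, limma adjusted p = 0.98). The summed signal of the 9 histone genes was above 0 h on average at all 3 times (ratios 1.098, 1.116 and 1.080), and the part that capture of RNA without poly(A) had in this was not tested. The mitochondrial ribosomal RNA mt-Rnr1, a target of depletion in some kits, varied most, with a log2 change at 72 h of 1.49 (SE 1.03).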

How the data were processed

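RNA of 8 libraries (4 times of tamoxifen, 2 libraries each) was measured. Ribosomal RNA was depleted, per the labels' protocols. The deposited values are a normalized signal, 1 per gene and library, normalized by the authors. How it was counted and scaled, whether strand was used and on which annotation release was not given in the sources used here. Per the submitters' processing notes, the tools included HISAT2 2.2, SAMtools 1.12 and deepTools 3.5, on the build mm10 (GRCm38). The labels' molecule field names genomic DNA, whereas the extraction protocol names RNA.

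GENCODE M21 holds 55141 (99.5%) of the identifiers and gave older symbols, biotypes and exons; coordinates are GRCm38. Sequences came from GENCODE M21 transcripts and RefSeq promoters. Genes whose mean signal was 1 or more (9606) were transformed as log2(signal + 1), which understates changes of low genes, and fitted once with limma 3.58.1 (R 4.3.3), in a model of group alone with an intensity trend and 4 residual degrees of freedom. All adjusted p-values are limma's, two-sided, Benjamini-Hochberg adjusted over the tested genes at a threshold of 0.05. The fit was tested on simulated data with genes changed at 72 h. It called 23 of 50 genes changed 1.25-fold, 45 of 50 at 1.5-fold, 47 of 50 at 2-fold and 50 of 50 at 3-fold. False calls numbered 7, and changes near 1.25-fold can therefore be missed. Groups came from the sample titles. Errors are SD over libraries or SE of the fit.

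The 9 genes, the wider family and the gene lists were chosen with earlier results of these data known. Named genes were the 3 most abundant of each class among the 9, those with the widest gap between libraries of 1 time, the germ-line histone genes, genes neighbouring the clusters, and selected list genes. H2bc7, H2bc8, H2ac8, H2ac12, H2ac6, H1f2, H1f4, H1f5, Rn7sk and mt-Rnr1 were chosen after their values were seen. Alternatives changed the pseudocount, the filter, the scaling, the libraries fitted, the trend and the replicate term, and left out each library. Isoforms were not analysed here.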

Additional observations from a re-analysis of the deposited data

How the results depend on the processing

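Over 17 alternative settings, limma called 0 of the 9 histone genes at each time, and the lowest adjusted p was 0.114, for Hist1h2br at 48 h when only the 2 times compared were fitted. Signs of these uncalled changes (log2) turned in 26 of 459 values, for 14 of 27 gene and time results. With trimmed mean rescaling, Hist1h4m and Hist1h4n at 24 h became -0.013 and -0.011 and Hist1h2al at 72 h became -0.0052. With quantile normalization, Hist1h4m at 24 h became -0.027, Hist1h2bq at 72 h 0.092 and Hist1h2ao at 72 h 0.10. With the shared neighbour value subtracted, Hist1h2br at 72 h became -0.0049; this setting was chosen after seeing the data. Leaving out 1 library at a time gave these ranges at 24 h: Hist1h2an -0.25 to 0.18, Hist1h2bp -0.11 to 0.28, Hist1h4m -0.13 to 0.14, Hist1h4n -0.073 to 0.094 and Hist1h2ap -0.012 to 0.13. At 48 h Hist1h2an ran from -0.020 to 0.10. At 72 h the ranges were -0.060 to 0.13 for Hist1h2an, -0.12 to 0.082 for Hist1h2bq, -0.22 to 0.21 for Hist1h2ao, -0.20 to 0.49 for Hist1h4m, -0.079 to 0.39 for Hist1h4n, -0.11 to 0.22 for Hist1h2ap, -0.048 to 0.67 for Hist1h2br and -0.045 to 0.062 for Hist1h2al. The ratio of summed signal ran from 1.02 to 1.18 at 24 h, 1.06 to 1.18 at 48 h and 0.942 to 1.22 at 72 h; leaving out replicate 1 of 72 h turned 6 of the 9 genes at 72 h below 0 that had been above. In a fit with 1 library left in a group, that library is assumed to vary like the others.

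Whether the replicate numbers pair the samples or mark a batch is not settled by these values. Deviations of same-numbered libraries correlated at -0.016 to 0.40 over the 6 pairs of times, highest between 24 and 48 h. With replicate number as a block, limma called 0 of the 9 genes at each time, while calls over all genes moved from 53 to 24 at 48 h. Counts over all genes also moved by more than 1.5 times with no filter (26 at 48 h, 55 at 72 h), with the lower filter and pseudocount (98 at 48 h), with only the 2 times compared (1 at 24 h and 111 at 48 h) and in fits without 1 library (2 to 104 at 24 h, 2 to 95 at 48 h, 9 to 320 at 72 h). Read depth is not given, so counting error could not be set beside the spread of libraries.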
